A study of Saccharomyces cerevisiae with 12 samples.

Results

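The RNA of wild-type budding yeast growing on glucose is described here from 3 libraries, WT_H2AZ replicates 1, 2 and 3, taken by their labels from the 12 libraries of the series. The cells are Saccharomyces cerevisiae BY4741 (S288C background) that carry wild-type H2A.Z, were grown in YPD to mid-log phase, received no treatment and are marked as control. The study sets a substitution mutant of the histone variant H2A.Z, and a substitution mutant of the remodelling ATPase Ino80, each against its own wild type. Total RNA was extracted with phenol and chloroform. WT_Ino80, the other wild type, has the same labelled background, medium, growth phase and lack of treatment, and its 3 libraries are used only to show where WT_H2AZ differs. Separate cultures are not named in the labels, so every SD and p-value given here measures only how far these samples differ, which may be technical. The labels give no mating type, no plasmid and no further allele.

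Budding yeast in rich glucose medium ferments sugar to ethanol even in air, and represses the genes for respiration and for other carbon sources. A fast-growing cell spends much of its transcription on ribosomes and on the enzymes of glycolysis. Genes kept as near-identical copies since the ancient genome duplication often encode the same protein but are not equally transcribed. YPD is rich in glucose, amino acids and nucleobases, so many biosynthetic and starvation genes have little call to be transcribed in it.

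Levels are given as TPM, the fragments (read pairs) of a gene divided by its length and scaled to 1000000 per library over all 7127 listed genes. The depth was 17454204 counted fragments in WT_H2AZ replicate 1, 18957785 in replicate 2 and 17655925 in replicate 3. A count of 0 allows up to 3 fragments, which is 0.172, 0.158 and 0.170 per 1000000 counted fragments in these libraries and covers counting error only. A fragment that touches 2 listed genes was not counted, so the 1401 genes overlapped by another listed gene have levels that are too low. For named nuclear genes the share of the length free of overlap is given below where it is under 60%, and it lay between 60% and 95% in TRP1, SSA1, YOR072W-B, GND1, AFB1, GCY1, HXT14, STE3, RNR2, TKL2, CAR2, SRG1, HEF3, HXK1, GLK1, HIS3, ERG7 and SER3. TPM are shares of a library from a bulk culture, so that more RNA per cell and more cells that express a gene cannot be told apart.

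The markers of the labelled strain were checked first. All 7 genes specific to mating-type a cells had at least 10 fragments in each library. MFA2 and MFA1, which encode the a-factor pheromone, stood at 1651, 3219 and 1617 TPM and at 1028, 1426 and 1247 TPM in WT_H2AZ replicates 1, 2 and 3. STE2, the receptor for alpha-factor, stood at 589 ± 100.1 TPM, AGA2, a subunit of a-agglutinin, at 381 ± 98.5 TPM, BAR1, the protease that degrades alpha-factor, at 188 ± 42.9 TPM, STE6, the a-factor exporter, at 54.6 ± 7.74 TPM, and ASG7 at 42.2 ± 8.03 TPM (SD, n = 3). The 5 genes specific to alpha cells were lower: AFB1 stood at 33.3 ± 1.07 TPM, SAG1 at 30.9 ± 3.35 TPM, MF(ALPHA)2 at 15.4 ± 0.703 TPM, STE3, the a-factor receptor, at 1.68 ± 0.221 TPM, and MF(ALPHA)1 at 0.584 TPM. The marker genes thus had the pattern of an a cell, which is the mating type of BY4741. Haploid genes ranged between 6.27 TPM for HO, the mating-type switching endonuclease, and 144 TPM for STE4, the beta subunit of the pheromone G protein, with STE18 at 111, RME1 at 91.9, GPA1 at 72.6, FUS3 at 64.7, STE5 at 33.1 and NEJ1 at 29.1 TPM.

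BY4741 carries deletions at HIS3, LEU2, MET17 and URA3, as background. LEU2 and MET17 had 0 fragments in all 3 WT_H2AZ libraries, and URA3 had 1, 0 and 1 fragments. HIS3 was read at 235 ± 30.7 TPM, beside markers that the strain keeps, ADE2 at 86.3 ± 0.304, TRP1 at 64.7 ± 8.67 and LYS2 at 36.2 ± 0.968 TPM (SD, n = 3). The deleted HIS3 allele of BY4741 removes part of the gene. LEU2 differed in the other wild type, with 0, 0 and 0 fragments in WT_H2AZ and 3172, 2996 and 2863 in WT_Ino80. HIS3 was called higher in WT_H2AZ than in WT_Ino80 (log2 fold change 1.10, edgeR quasi-likelihood test, adjusted p = 0.00656). ADE2, TRP1 and LYS2 were not called.

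RNA was concentrated in few genes. The highest gene held 2.22% ± 0.259 of all TPM, the 10 highest 11.9% ± 0.909, the 100 highest 36.6% ± 1.10 and the 500 highest 66.2% ± 1.28 (SD, n = 3). As much as 50% of all TPM came from 205, 220 and 189 genes in WT_H2AZ replicates 1, 2 and 3, and 90% came from 2286 ± 76.0 genes. The many genes below these shared the last 10%. Without division by gene length the 100 highest genes held 32.5% ± 1.67 of fragments, and 50% of fragments came from 331 ± 38.1 genes, because many of the highest genes are short.

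At the other end, 6012 genes, 5706 of them among the 6008 protein-coding genes that match the RefSeq annotation, had at least 10 fragments in each library. Their median level was 43.0 ± 1.89 TPM. Between the 1st percentile, at 1.58 ± 0.0816 TPM, and the 99th, at 2274 ± 51.0 TPM, lay a 1444-fold range, or 3.16 ± 0.0302 powers of 10 (SD, n = 3). Protein-coding genes formed 1 broad peak: 3721 of them lay between 10 and 100 TPM, 1290 between 100 and 1000, 193 between 1000 and 10000, and 5 above 10000 TPM. Below 10 TPM there were 547 down to 1 TPM, 118 down to 0.1, 25 below that, and 109 with no fragment. The 194 listed genes between 1000 and 10000 TPM held 41.9% of TPM, and the 5 above them 7.50%.

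**Figure D1:**
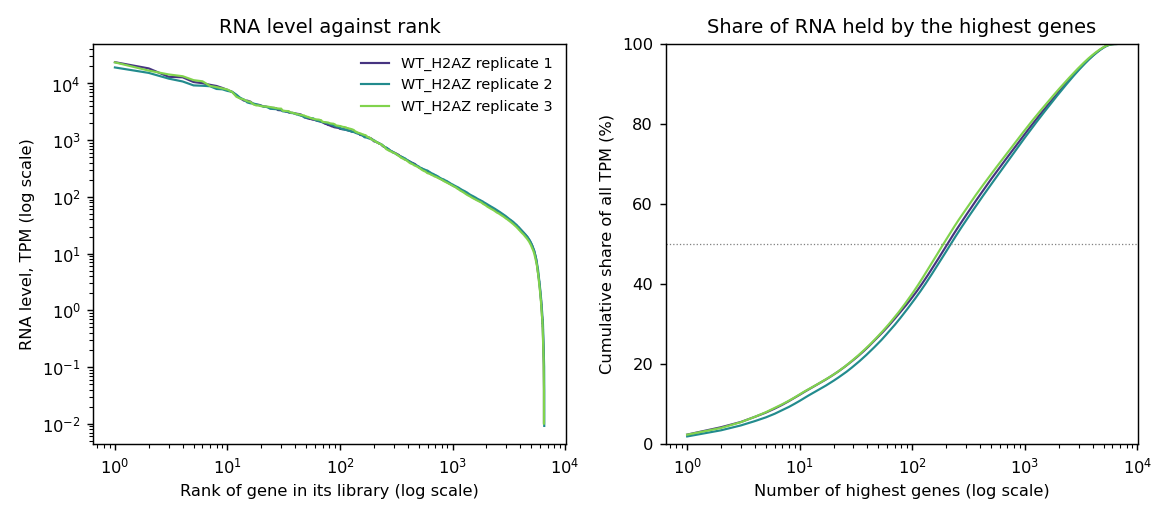
Left, TPM of every gene with a fragment against its rank in its library, both on log scales, with 1 line per WT_H2AZ replicate. Right, the cumulative share of all TPM held by the highest genes, where the lines cross the dotted 50% line at 205, 220 and 189 genes.

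The 20 highest protein-coding genes fall into few functions. TDH3 (YGR192C, chrVII:882812-883810 in sacCer3), a glyceraldehyde-3-phosphate dehydrogenase of glycolysis, was the highest, at 23753, 19168 and 23557 TPM in WT_H2AZ replicates 1, 2 and 3. Replicate 2 was the lowest of the 3 for TDH3, as it was for ADH1, FBA1, ENO2 and PDC1. The others of these 20 that act on sugar were ADH1, the alcohol dehydrogenase that makes ethanol, at 12715 ± 1802 TPM, FBA1, aldolase, at 10331 ± 1279, ENO2, enolase, at 9643 ± 1569, PDC1, pyruvate decarboxylase, at 6904 ± 1473, TDH2 at 4988 ± 847, TPI1, triose phosphate isomerase, at 4363 ± 407, HXK1, a hexokinase, at 4146 ± 456, and the hexose transporter HXT2 at 8180.4 ± 172 TPM (SD, n = 3). HXT2 varied least of the 20, with 8349.6, 8005 and 8186 TPM in WT_H2AZ replicates 1, 2 and 3.

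Cell wall proteins were the second function. CCW12 (YLR110C), a mannoprotein of the cell wall, stood at 13118, 12192 and 13422 TPM, SED1, a glycoprotein of the stationary-phase wall, at 9026, 7138 and 9047 TPM, and CWP2, a wall mannoprotein, at 6074, 9248 and 8629.9 TPM in WT_H2AZ replicates 1, 2 and 3. NCW1, also a wall protein, stood at 3874 ± 198 TPM. The second highest gene of all encodes an uncharacterized protein of 201 coding bases, YDR524C-B (chrIV:1489598-1489798), at 18434, 15357 and 16859 TPM. HOR7, a small protein first found as responsive to high osmolarity, stood at 6638 ± 1063 TPM, SPO24, a small protein named for sporulation, at 5140.1 ± 381, and the peroxiredoxin TSA1 at 3985 ± 687 TPM (SD, n = 3). Ribosomal protein genes supplied RPS31, which encodes a ubiquitin fusion, at 5098 ± 426, RPL41A at 4783 ± 1367 and RPS20 at 3702 ± 371 TPM.

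Short genes are frequent among these 20, and their TPM divide by few coding bases. A fragment that reaches past the coding ends can still be counted for the gene. TPM of short genes can thus be too high against those of long genes, by an amount not measured here. RPL41A, with 78 coding bases, was read at 3902, 6358 and 4088 TPM and was 1.5 times or more higher in replicate 2 than in the other WT_H2AZ replicates. YDR133C (chrIV:720962-721297), an open reading frame of no RefSeq gene, stood at 9478, 9116 and 7088 TPM and would rank among the 20. It overlaps the wall protein pseudogene CCW22 of the reference, which was not analysed here, and it was named after its values were seen. Sets of the 10, 20 and 100 highest protein-coding genes had 8, 15 and 82 genes shared by all 3 WT_H2AZ libraries.

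**Figure D2:**
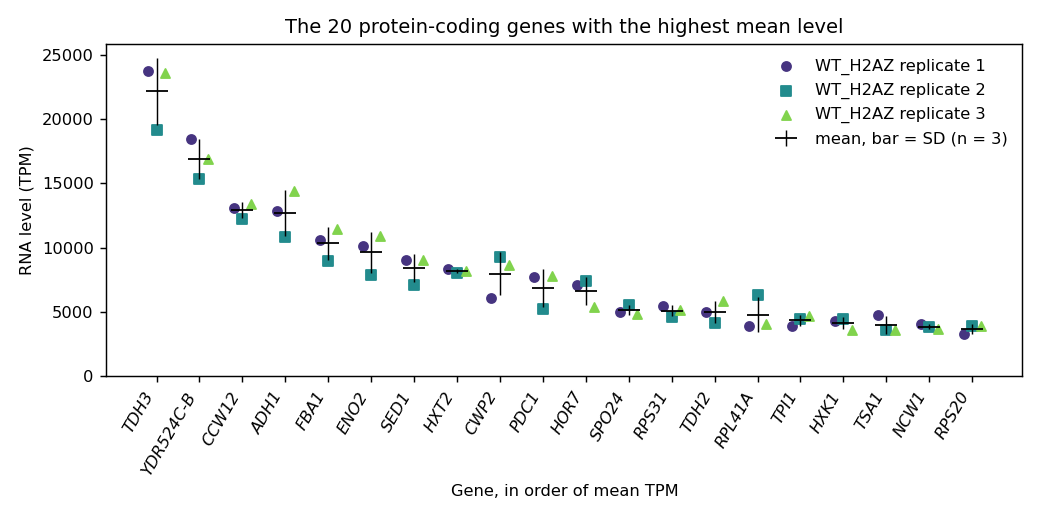
RNA level in TPM of the 20 highest protein-coding genes, ordered by mean. Points are the 3 WT_H2AZ libraries, horizontal marks the mean and bars the SD, and TDH3 reaches 23753 TPM in replicate 1 while RPS20, the last of the 20, averages 3702 TPM.

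Among the 100 highest protein-coding genes, which held 35.7% of TPM, 42 were cytosolic ribosomal protein genes, 12 belonged to glycolysis, 7 to the cell wall, 5 to hexose transport, 5 to a list of other major transporters, 4 to the stress response and 3 each to fermentation, the antioxidant enzymes and the core histones. A gene can stand in more than 1 list. In none of the lists stood 13 of the 100, with 5.09% of TPM between them, YDR524C-B, SPO24 and NCW1 the highest of these.

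The 17 glycolysis genes together held 7.86% ± 0.673 of TPM (SD, n = 3), and 14 of them exceeded 1000 TPM. Summed over isoenzymes, the steps of glycolysis were far from equal. Glyceraldehyde-3-phosphate dehydrogenase reached 28542 ± 2863 TPM, enolase 13319.6 ± 1797 TPM, aldolase 10331 ± 1279 TPM and triose phosphate isomerase 4363 ± 407 TPM. The hexokinases and glucokinase, at the entry, together reached 9772 ± 621 TPM, below aldolase and above triose phosphate isomerase. The next 2 steps were lower, with PGI1, phosphoglucose isomerase, at 1295 ± 191 TPM and the phosphofructokinase subunits PFK1 and PFK2 at 529 ± 60.5 and 497 ± 60.5 TPM. TDH3 alone was over 40 times PFK1 on the TPM scale, although both enzymes act in the same pathway.

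Some glycolytic genes are read too low because other listed genes overlap them. PGK1, phosphoglycerate kinase, stood at 3493 ± 217 TPM with 52.4% of its length free of overlap, GPM1, phosphoglycerate mutase, at 3627 ± 303 TPM with 37.1%, and CDC19, the main pyruvate kinase, at 2649 ± 454 TPM with 35.9%. Divided by the free length only, they came to 6318, 9274 and, for CDC19, 6993 TPM. On the same scale GPM1 was close to ENO2, at 9146 TPM, and FBA1, at 9799 TPM, while PGK1 and CDC19 were below both. The remaining members were ENO1 at 3677 ± 379.5, GLK1, glucokinase, at 3379 ± 289, HXK2 at 2247 ± 158, TDH1 at 1395 ± 535 and PYK2, the second pyruvate kinase, at 166 ± 10.6 TPM (SD, n = 3).

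TDH1 stood apart by its spread: 1402, 1925 and 856 TPM in WT_H2AZ replicates 1, 2 and 3. It was highest in replicate 2, at over 2 times replicate 3, while TDH3 and TDH2 were lowest in replicate 2. Fermentation genes held 2.39% ± 0.292 of TPM. Besides ADH1 and PDC1 they were ALD6, the cytosolic acetaldehyde dehydrogenase, at 3507 ± 394 TPM and the mitochondrial ADH3 at 500.3 ± 16.4 TPM, and the lowest was PDC6, a minor pyruvate decarboxylase, at 1.99 ± 0.264 TPM (SD, n = 3).

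High levels went with a particular codon usage. Highly translated yeast genes favour the codons read by abundant tRNAs, as background, and 23 such codons were counted. They were GCT and GCC for alanine, AGA for arginine, AAC for asparagine, GAC for aspartate, TGT for cysteine, CAA for glutamine, GAA for glutamate, GGT for glycine, CAC for histidine, ATT and ATC for isoleucine, TTG for leucine, AAG for lysine, TTC for phenylalanine, CCA for proline, TCT and TCC for serine, ACT and ACC for threonine, TAC for tyrosine, and GTT and GTC for valine. ATG, TGG and stop codons were left out. The median share of these codons was 88.3% in the 100 highest genes, 86.6% in all genes above 1000 TPM and 54.0% between 100 and 1000 TPM, against 46.0% over all 5941 nuclear coding sequences examined. Below 100 TPM it hardly moved, at 44.9% between 10 and 100 TPM, 44.1% between 1 and 10 TPM and 45.4% below 1 TPM. Glycolysis genes had a median of 92.5% and cytosolic ribosomal protein genes one of 89.0%. Across 5660 genes with at least 10 fragments in each library, Spearman's rho of codon share with TPM was 0.529, and it was 0.498 without the ribosomal protein genes. Genes are not independent replicates, both measures come from the same gene models, and no test was made of it.

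The first 30 codons of 6 genes show how far members of gene families differ in this, taken from the R64 (sacCer3) reference and written 5′ to 3′ on the coding strand, with preferred codons in capitals. TDH3 was the highest gene of all and TDH1 is its lowest paralog. CDC19 and PDC1 are the dominant pyruvate kinase and pyruvate decarboxylase, while PYK2 and PDC6 are low members of the same families.
TDH3, chrVII:883721-883810, minus strand: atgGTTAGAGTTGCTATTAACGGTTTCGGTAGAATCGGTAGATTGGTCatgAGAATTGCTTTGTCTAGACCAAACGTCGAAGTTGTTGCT
TDH1, chrX:338271-338360, plus strand: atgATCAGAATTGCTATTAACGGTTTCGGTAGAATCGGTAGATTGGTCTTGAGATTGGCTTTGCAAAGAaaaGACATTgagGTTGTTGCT
CDC19, chrI:71786-71875, plus strand: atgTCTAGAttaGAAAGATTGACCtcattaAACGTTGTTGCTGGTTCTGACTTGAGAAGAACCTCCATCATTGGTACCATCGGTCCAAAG
PYK2, chrXV:986373-986462, minus strand: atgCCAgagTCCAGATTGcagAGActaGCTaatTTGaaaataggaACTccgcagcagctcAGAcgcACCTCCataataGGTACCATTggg
PDC1, chrXII:233992-234081, minus strand: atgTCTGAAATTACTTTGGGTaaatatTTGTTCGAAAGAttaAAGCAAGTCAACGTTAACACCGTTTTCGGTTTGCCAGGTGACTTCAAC
PDC6, chrVII:652892-652981, minus strand: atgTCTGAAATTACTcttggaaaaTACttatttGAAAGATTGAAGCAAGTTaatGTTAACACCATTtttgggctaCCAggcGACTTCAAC

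Of these 30 codons, 28 were preferred in TDH3 and 27 in TDH1, 26 in CDC19 and 14 in PYK2, 26 in PDC1 and 19 in PDC6. Over the whole coding sequence the share was 97.5% in TDH3, 93.2% in TDH1, 95.5% in CDC19, 50.6% in PYK2, 96.3% in PDC1 and 54.4% in PDC6. PYK2 and PDC6 lay above the median of all genes, 46.0%, and below their 90th percentile, 61.9%. In contrast TDH1, at 1395 TPM against 22159.6 TPM for TDH3, had nearly the share of TDH3. The highest genes by TPM were also short. The median coding length was 526.5 bases in the 100 highest and 1188 bases over all, and Spearman's rho of coding length with TPM was -0.27 across the same 5660 genes. TPM is itself divided by this length, so both values lean to short genes by construction. Their counterparts without that division are not given here.

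Cytosolic ribosomal protein genes formed the largest class by RNA of all the lists examined. The 137 genes held 18.3%, 19.1% and 20.5% of TPM in WT_H2AZ replicates 1, 2 and 3, or 19.3% ± 1.13 (SD, n = 3). Without division by length their share of fragments was 9.51% ± 0.705, since these genes are short. Their median was 1251 TPM, 88 of 137 exceeded 1000 TPM, and 134 had at least 10 fragments in each library.

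Apart from the proteins of the stalk, each ribosome holds these proteins in equal number, which sets a scale for how far their RNAs differ. Summed over the genes that share a name, the 78 proteins had a median of 2439 TPM, with quartiles at 1762 and 3009 TPM. For the 64 proteins with no overlapped gene the 90th percentile was 2.32 times the 10th. The highest sum was that of RPL41, at 7988 ± 1247 TPM, and the lowest without overlap that of RPL35, at 930.0 ± 126 TPM (SD, n = 3). RPL41A and RPL41B have 78 coding bases each, so that the sum of RPL41 can be too high. The proteins below RPL35 were RPL33, RPL36, RPL22, RPL28 and RPL39, and each has a gene with little of its length free of overlap, the most being 12.04% in RPL33A. RPL39 had 0 fragments, with 3.85% of its length free, and RPL28 stood at 18.7 ± 10.5 TPM with 10.9% free. Most of their length could not be counted. The stalk proteins RPP1 and RPP2 followed RPL41, at 5506 ± 498 and 5249 ± 972 TPM.

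Among other large complexes the proteasome was more even still. Its 33 genes lay between 159 TPM for RPN1 and 395 TPM for PUP3, a 2.48-fold range, around a median of 224 TPM. The 66 genes of the mitochondrial ribosome had a median of 69.2 TPM, with quartiles at 57.9 and 91.2 TPM. MRPS12 was the highest of them, at 247 ± 77.1 TPM, and MRPL38 the lowest, at 0.423 ± 0.274 TPM with 12.2% of its length free. Genes of the 3 nuclear RNA polymerases had a median of 80.7 TPM between RPC17 at 22.9 and RPB10 at 297 TPM. The core histones, which package DNA, summed over the gene pair of each type to 2880.1 ± 185 TPM for H2A, 3399 ± 242 for H2B, 3864 ± 96.0 for H3 and 2971 ± 687 TPM for H4 (SD, n = 3). H3 RNA came mostly from HHT2, at 2986 ± 91.5 TPM, with HHT1 at 878 ± 30.6 TPM, while HTA1 stood at 1989, HTA2 at 891, HTB2 at 1786, HTB1 at 1614, HHF2 at 1602 and HHF1 at 1369 TPM.

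The highest genes differed by class in their upstream sequence. The letters TATAAA, the core of the TATA box to which the TATA-binding protein binds, were searched on both strands within 300 bases before the start codon. They were present in 62.0% of the 100 highest genes, against 47.8% of all 5941 genes, which is the share that this window gives without regard to level. Without the ribosomal protein genes the share among the 100 highest was 84.5%, or 49 of 58 genes. Among the ribosomal protein genes of the genome it was 28.9%, or 39 of 135, and among the glycolysis genes 82.4%, or 14 of 17. The letters CACCCANAC, part of the consensus of Rap1, the activator of ribosomal protein genes, were searched on both strands within 500 bases. They were present before 17.8% of ribosomal protein genes (24 of 135), 23.5% of glycolysis genes (4 of 17), 11% of the 100 highest genes and 2.19% of all genes. Introns were present in 64.4% of ribosomal protein genes, in 0 of 17 glycolysis genes and in 4.53% of all genes.

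The region before the highest gene of glycolysis, of the cell wall, of hexose transport and of the ribosome shows this contrast, each from 300 to 101 bases before the start codon, with TATAAA on either strand in capitals. They were read from the R64 (sacCer3) reference on the strand of the gene, 5′ to 3′.
TDH3, chrVII:883911-884110, minus strand: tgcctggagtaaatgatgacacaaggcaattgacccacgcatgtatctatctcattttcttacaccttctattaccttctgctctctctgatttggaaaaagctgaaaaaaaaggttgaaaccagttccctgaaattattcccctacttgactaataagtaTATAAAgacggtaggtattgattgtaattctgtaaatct
CCW12, chrXII:370199-370398, minus strand: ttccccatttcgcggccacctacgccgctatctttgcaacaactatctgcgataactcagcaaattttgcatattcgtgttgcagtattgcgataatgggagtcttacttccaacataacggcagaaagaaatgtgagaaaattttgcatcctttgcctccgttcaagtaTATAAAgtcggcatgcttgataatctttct
HXT2, chrXIII:287779-287978, plus strand: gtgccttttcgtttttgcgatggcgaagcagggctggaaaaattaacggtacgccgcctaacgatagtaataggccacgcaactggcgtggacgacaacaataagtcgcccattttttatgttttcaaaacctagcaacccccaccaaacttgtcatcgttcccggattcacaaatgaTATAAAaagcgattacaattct
RPS31, chrXII:498647-498846, plus strand: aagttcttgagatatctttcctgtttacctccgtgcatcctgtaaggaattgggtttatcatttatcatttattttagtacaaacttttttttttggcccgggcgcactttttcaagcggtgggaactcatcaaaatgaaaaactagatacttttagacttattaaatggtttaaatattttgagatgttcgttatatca

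TDH3, CCW12 and HXT2 each held TATAAA once in the window printed, and RPS31 did not hold these letters there. A match of letters is a description of the sequence and no measure of binding.

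Beside ribosomes and glycolysis, the cell wall was the next class by RNA. The 37 cell wall genes held 5.48% ± 0.293 of TPM, 15 of them above 1000 TPM, with HSP150, a secreted wall protein, at 3640.3 ± 766 TPM after CCW12, SED1 and CWP2, and DAN4 the lowest, at 12.8 ± 3.59 TPM (SD, n = 3). The 32 stress response genes held 2.66% ± 0.222, although the cells were labelled as untreated. After HOR7 they were led by DDR2, a small stress protein, at 2396 ± 395 TPM, LSP1, a component of the eisosome, at 2048 ± 53.9 TPM, and PNC1, a nicotinamidase, at 1805 ± 31.8 TPM, and SIP18 was the lowest, at 7.63 ± 5.09 TPM. Translation factors held 1.96% ± 0.151, led by TEF2 and TEF1, which encode the same elongation factor and share most of their sequence, so that the split between them is uncertain, at 2249 ± 217 and 1562 ± 194 TPM. Elongation factor 3, YEF3, stood at 1607 ± 278 and EFB1 at 1572 ± 151 TPM. HYP2, the major gene of the factor eIF5A and a member of this list, had 0 fragments, and its whole length is overlapped by another listed gene.

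Chaperones held 1.43% ± 0.0841 of TPM, led by the cyclophilin CPR1 at 2123 ± 335 TPM, with 50.5% of its length free, and by the Hsp70 genes SSB2, SSA1 and SSC1 at 1134 ± 205, 1040.2 ± 133 and 963 ± 147 TPM. SSA3, an inducible Hsp70, stood at 21.8 ± 1.72 TPM. Antioxidant enzymes held 1.57% ± 0.162, with the superoxide dismutase SOD1 at 3010.2 ± 571, the peroxiredoxin AHP1 at 2618 ± 327 and the thioredoxin TRX2 at 1326 ± 298 TPM after TSA1. Nuclear genes of the respiratory chain held 1.04% ± 0.106, at a median of 352 TPM, and those of ATP synthase 0.608% ± 0.0470, at a median of 329.6 TPM. Amino acid biosynthesis held 1.31% ± 0.0711, with 38 of 65 genes above 100 TPM, and CYS3 the highest at 739 ± 174 TPM. Ribosome biogenesis factors, although required for every ribosome, held 0.551% ± 0.0317 with a median of 41.4 TPM, close to the median of all detected genes.

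Nutrient genes gave a mixed picture for a rich medium. Iron uptake was led by the wall proteins FIT3 and FIT2, which retain siderophore iron, at 1578 ± 434 and 941 ± 224 TPM, above the high-affinity iron oxidase FET3 at 309 ± 24.5 and the permease FTR1 at 179.7 ± 14.4 TPM. The lowest of these 17 genes was FRE2, an iron reductase, at 15.5 ± 1.09 TPM. Of the 16 phosphate genes VTC1, of the polyphosphate polymerase, was the highest, at 652 ± 122 TPM, with the high-affinity transporter PHO84 at 373 ± 61.4 TPM and GIT1, a glycerophosphoinositol permease, at 3.29 ± 1.47 TPM. Genes of nitrogen catabolite repression had a median of 13.7 TPM, with the arginine catabolic genes CAR1 and CAR2 the highest, at 266 ± 19.3 and 134 ± 5.52 TPM. Thiamine and vitamin B6 genes had a median of 8.22 TPM, with PHO3, a thiamine-repressed phosphatase, the highest at 129 ± 20.1 TPM, and those of fatty acid oxidation one of 22.01 TPM, led by PEX11, of peroxisome growth, at 79.3 ± 8.88 TPM.

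Central and membrane metabolism lay between these extremes. The 11 genes of the tricarboxylic acid cycle had a median of 256 TPM, all above 100 TPM, with citrate synthase CIT1 at 619 ± 52.4 and KGD1, of 2-oxoglutarate dehydrogenase, at 126 ± 5.99 TPM. The 24 ergosterol genes had a nearly equal median of 253 TPM, between ERG7, lanosterol synthase, at 52.5 ± 5.59 and ERG25, a sterol oxidase, at 556 ± 64.3 TPM. Of the vacuolar ATPase genes VMA3, which encodes a membrane ring subunit present in several copies, was the highest, at 1237 ± 66.0 TPM, against a median of 329 TPM. In the sulfur and methionine list SAH1, which hydrolyses S-adenosylhomocysteine, and SAM1, S-adenosylmethionine synthetase, led at 916 ± 147 and 515 ± 108 TPM. The 20 genes of the cell cycle list had a median of 33.1 TPM, led by the ribonucleotide reductase genes RNR4 and RNR2, at 674 ± 78.6 and 417 ± 22.9 TPM, with the G1 cyclin CLN3 at 59.8 ± 12.7 and the S-phase cyclin CLB6 at 2.55 ± 0.716 TPM (SD, n = 3).

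**Figure D3:**
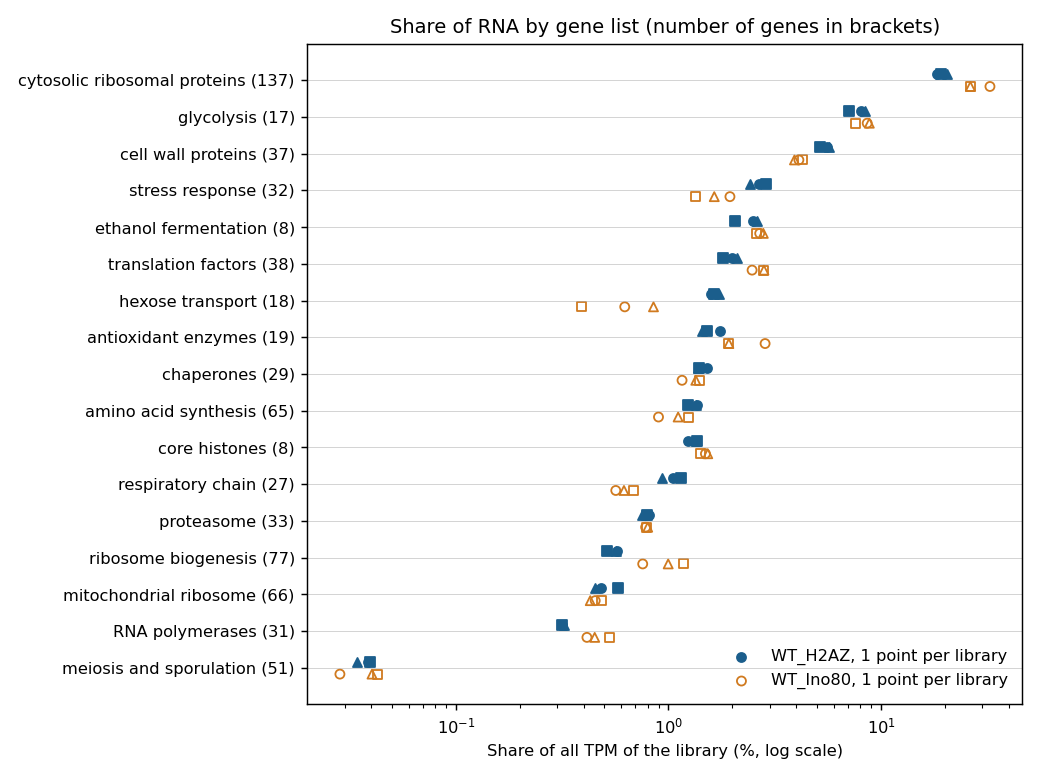
Share of all TPM held by each gene list, on a log scale, with WT_H2AZ above WT_Ino80 in each row and 1 point per library (circle, square and triangle for replicates 1, 2 and 3). In WT_H2AZ cytosolic ribosomal protein genes average 19.3%, glycolysis 7.86% and meiosis and sporulation genes 0.0375% of TPM.

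Glucose enters through hexose transporters of different affinity, whose genes follow the glucose supply: HXT1 and HXT3 are induced at high glucose, and HXT2, HXT4, HXT6 and HXT7 are high-affinity or low-glucose transporters, as background. In WT_H2AZ HXT2 and HXT4 exceeded HXT3 and HXT1 in every library, and HXT3 averaged slightly above HXT7 and HXT6. HXT2 stood at 8180.4 ± 172 TPM, HXT4 at 2138, 2511 and 2769 TPM and HXT3 at 1661, 1677 and 2356 TPM in WT_H2AZ replicates 1, 2 and 3. HXT7 and HXT6, which are 99.8% identical and have 4.93% unique 50-base words, stood at 1842 ± 50.1 and 1756 ± 229 TPM, a split that the counting cannot give reliably. HXT1, the low-affinity transporter, stood at 235, 230.0 and 331 TPM, below each of these 5 in every library. HXT5 stood at 20.8 ± 0.490 TPM, and the 2 glucose sensors SNF3 and RGT2 at 38.2 ± 1.43 and 14.8 ± 0.582 TPM (SD, n = 3).

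The remaining transporter genes of the list were low. HXT13 stood at 10.1, HXT8 at 7.21, HXT17 at 6.97, HXT11 at 3.79, HXT9 at 1.87, HXT15 at 1.79 and HXT10 at 1.61 TPM, while HXT14 and HXT16 had at most 8 fragments in any library. Other glucose-repressed genes did not form 1 level. SUC2, the invertase whose gene is repressed by glucose, stood at 1229.9, 1132 and 941 TPM, and the next were MDH2, cytosolic malate dehydrogenase, at 100.5 ± 3.90, ADR1, an activator of glucose-repressed genes, at 98.2 ± 9.29, and ICL1, isocitrate lyase, at 46.1 ± 1.82 TPM. The respiratory alcohol dehydrogenase ADH2 stood at 31.9 ± 4.22 TPM, the gluconeogenic genes FBP1 and PCK1 at 19.8 ± 2.11 and 4.202 ± 0.735 TPM, and SFC1, a mitochondrial carrier, at 0.841 ± 0.280 TPM. The labelled medium is rich in glucose, and of the markers for it HXT3 was high while HXT1 was not. The glucose left in the cultures at harvest is not given in the labels.

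**Figure D4:**
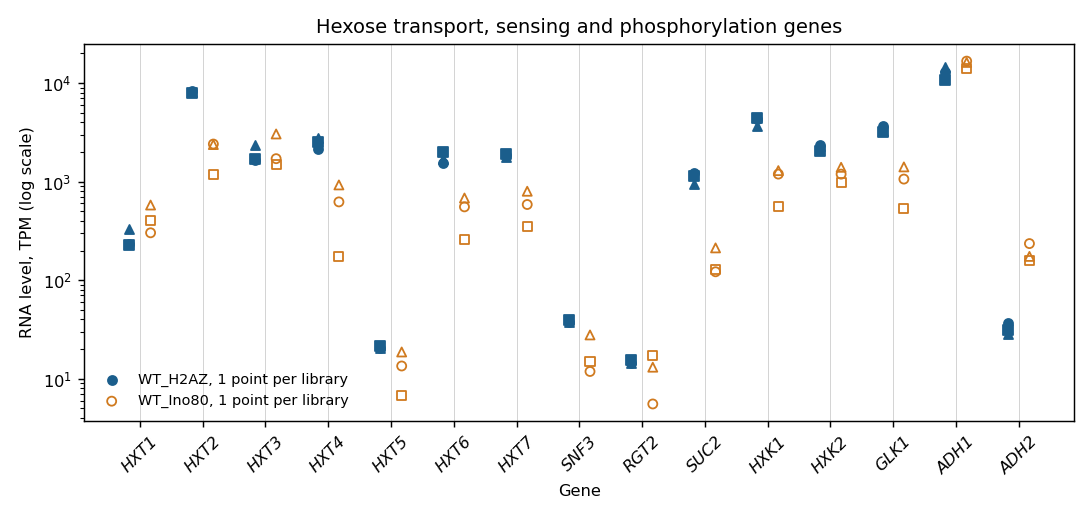
RNA level in TPM, on a log scale, of hexose transporter, sensor, invertase, hexokinase and alcohol dehydrogenase genes, with WT_H2AZ left of WT_Ino80 and 1 point per library. Circles, squares and triangles are replicates 1, 2 and 3, and HXT2, HXT4, HXT5, HXT6, HXT7, SNF3, SUC2, HXK1, HXK2 and GLK1 have no overlap between the groups, with WT_H2AZ above, and ADH2 has none with WT_H2AZ below. Of these, HXT5 and HXK2 were not called (edgeR quasi-likelihood test, adjusted p = 0.351 and 0.0660). The share of all genes without overlap is not given here, and 29.9% of all genes tested were called between the wild types.

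Paralog families were examined as the TPM ratio of the highest member to the next within each library, which needs no scaling between libraries. Of 102 families with a ratio, 57 differed by 2-fold or more, 16 by 10-fold or more and 4 by 100-fold or more, and 28 by less than 1.5-fold, with a median of 2.43. The order of the 2 members was the same in all 3 WT_H2AZ libraries in 95 families. The ratios are given as descriptions, with no test.

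The 4 most unequal pairs each join a housekeeping gene to a copy for other conditions. PDC1 exceeded PDC5, whose gene is known to be induced when PDC1 is lost, 388, 388 and 586-fold in WT_H2AZ replicates 1, 2 and 3. ADH1 exceeded ADH2 352, 349 and 512-fold, although their coding sequences are 88.8% identical. PMA1, the essential plasma membrane proton pump, exceeded PMA2 256, 337 and 429-fold, and YEF3 exceeded HEF3 342, 233 and 337-fold. In each of these 4 pairs the lower gene still had at least 284 fragments in every library, so the ratios rest on counts far above the floor.

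The next ratios were near 30 to 40. They were 39.6 for POR1 over POR2, the mitochondrial porins, 38.5 for PET9 over AAC1, the ADP/ATP carriers, 34.5 for GND1 over GND2, the phosphogluconate dehydrogenases, and 32.1 for TKL1 over TKL2, the transketolases, as geometric means of 3 libraries. The glycolytic families were less unequal. CDC19 exceeded PYK2 19.1, 12.2 and 16.9-fold, a ratio that is understated, since with free length only it was 44.4. TDH3 exceeded TDH2 4.77, 4.63 and 4.04-fold, ENO2 exceeded ENO1 2.996, 2.22 and 2.66-fold and HXK1 exceeded HXK2 1.84, 2.16 and 1.57-fold. In coding sequence TDH3 had 75.6%, ENO2 76.4% and ADH1 86.0% unique 50-base words, and how reads shared between copies were assigned is not given in the sources used here. PFK1 and PFK2, the subunits of 1 enzyme, differed 1.12, 1.06 and 1.01-fold.

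Ribosomal protein pairs were more even, with a median ratio of 1.70 over 58 pairs. The ratio was 2-fold or more in 23 pairs, 10-fold or more in 7 and under 1.5-fold in 21, and the order held in all 3 WT_H2AZ libraries in 55. The most unequal pairs were RPL33B over RPL33A (102) and RPL22B over RPL22A (83.1), and in RPL22A 3.28% of the length is free, less than in RPL33A. Divided by free length these ratios were 12.1 and 2.35. Of pairs without overlap the most unequal were RPL15A over RPL15B, at 27.7, 27.6 and 35.2-fold, RPS9B over RPS9A, at 16.2, 14.5 and 19.6-fold, and RPS14A over RPS14B, at 10.8, 9.52 and 10.2-fold. The most even were RPS18A and RPS18B, RPS16A and RPS16B, and RPS23A and RPS23B, whose ratios were 1.02, 1.01 and 0.991. In these 3 pairs the order differed between WT_H2AZ libraries.

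**Figure D5:**
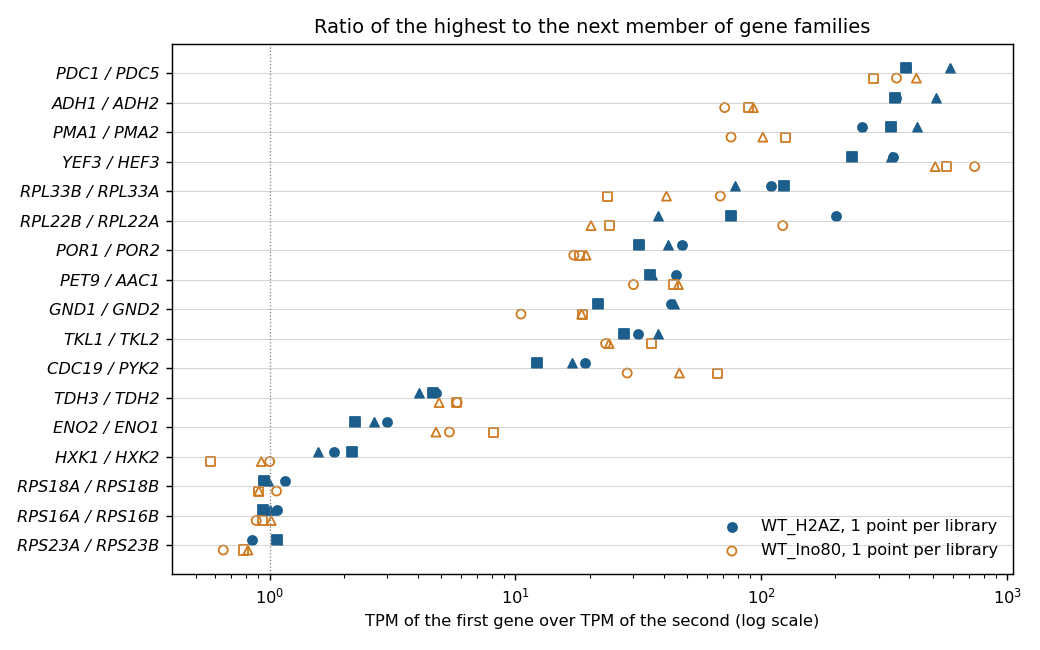
TPM ratio of the highest to the next member of gene families within each library, on a log scale, with WT_H2AZ above WT_Ino80 in each row and 1 point per library (circle, square and triangle for replicates 1, 2 and 3). The dotted line marks a ratio of 1, which the 3 pairs at the bottom straddle in WT_H2AZ, while PDC1 exceeds PDC5 by at least 388-fold in each WT_H2AZ library.

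Regulators and unused pathways made up the low end. The 52 transcription factor genes had a median of 36.8 TPM, below the median of all detected genes. GCN4, the activator of amino acid biosynthesis whose protein is controlled by translation, stood out at 1314 ± 242 TPM, followed by HAP4, an activator of respiratory genes, at 324 ± 31.2 TPM, TEC1 at 189.6 ± 36.5 and MSN4 at 187 ± 7.01 TPM. The 51 genes of meiosis and sporulation held 0.0375% ± 0.00288 of TPM, at a median of 3.80 TPM, and 40 of them lay below 10 TPM. SPO73, CST9, SMK1 and SPO75 were the highest of these, at 46.3, 35.2, 29.1 and 22.00 TPM, and CDA2, a chitin deacetylase of the spore wall, had 2, 1 and 2 fragments in WT_H2AZ replicates 1, 2 and 3. SPO24, named for sporulation too but in no list, was thus over 100 times the highest of them on the TPM scale.

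Of the galactose genes, the reductase gene GCY1 was the highest, at 119 ± 8.49 TPM, and the regulators GAL80 and GAL4 followed, at 82.2 ± 10.2 and 22.3 ± 1.62 TPM. The enzymes were lower, with GAL10, the epimerase, at 17.3 ± 0.608 TPM and GAL7, the uridylyltransferase, at 6.07 ± 1.84 TPM. Flocculin genes, which encode cell adhesion proteins, lay between FLO1 at 3.20 ± 0.472 and FLO5 at 13.8 ± 2.83 TPM. The 24 seripauperin genes, a repeated subtelomeric family, had a median of 1.68 TPM, with PAU5 at 57.2 ± 4.09 TPM and PAU8 at 0 fragments, and 9 of them had at most 3 fragments in every library. Much of that family is not unique in sequence.

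Silent genes were fewer than the count of zeros. Of 7127 listed genes, 473 had 0 fragments in all 3 WT_H2AZ libraries, and 707 had at most 3 in every library. They included 143 of 299 tRNA genes, 14 of 24 rRNA genes and 199 of 683 open reading frames that have no RefSeq gene, and only 109 of 6008 protein-coding genes. Of these 109, 15 lie in the mitochondrial genome. Among the 94 nuclear ones, 61 are overlapped over their whole length by another listed gene, and every one of the 61 such genes in the genome had 0 fragments, so that they were not measured. They include CUP1-1 and CUP1-2, the metallothionein genes, DID2 and many Ty element genes. Sequence that is not unique was common as well: 58.5% of the 94 had under 10% unique 50-base words, against 2.87% of all nuclear protein-coding genes.

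Chromosome ends were over-represented, with 18.1% of the 94 genes within 20 kb of an end, against 4.11% of all. Several of these end genes have no unique 50-base word, PAU1, PAU14 and ERR1 among them. Position and uniqueness of sequence were not separated in this share. Only 12 of the 94 had at least 90% unique sequence and any free length. Besides the deleted LEU2 and MET17 they were RPL39, LSM8 with 6.06% and FMP49 with 1.31% of the length free, and 7 short or uncharacterized genes, YFR057W, YLR302C, IRC13, YOR072W-B, YOL166W-A, YNL067W-B and YAR035C-A. The count of nuclear genes with unique sequence, at least 50% free length and at most 3 fragments in every library was 24 of 5484. LDS1 and CDA2, both of the spore wall, PFS1, of prospore formation, and ECM23, a GATA-like regulator, were among them. In WT_H2AZ replicates 1, 2 and 3 LDS1 had 3, 2 and 2 fragments, CDA2 had 2, 1 and 2, PFS1 had 1, 2 and 0, and ECM23 had 1, 3 and 0. At this depth nearly every countable yeast gene gave fragments, and a level near 0 was the exception. The counting named no strand option, so fragments of RNA from the opposite strand can be among them. Fragments on a gene thus do not show that its own mRNA was made.

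The mitochondrial genome gave almost none. Its 55 listed genes had 9, 7 and 8 fragments in all in WT_H2AZ replicates 1, 2 and 3, and 10, 23 and 25 in WT_Ino80. Of 19 protein-coding genes there, COX2, ATP6, BI4 and AI2 had 1 or 2 fragments and the other 15, COX1, COX3, COB and OLI1 among them, had 0 in WT_H2AZ. Nuclear genes that encode partners of these proteins had the medians of respiratory chain and ATP synthase genes given above. Yeast mitochondrial mRNA carries no poly(A) tail, as background, and the RNA selection of the libraries is not given in the sources used here. The cause of the near absence was not tested.

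Abundant RNAs without a poly(A) tail were low as well. SCR1, the RNA of the signal recognition particle, had 43, 130 and 106 fragments in WT_H2AZ replicates 1, 2 and 3, LSR1, the U2 spliceosomal RNA, 97, 118 and 94, NME1, of RNase MRP, 33, 58 and 46, and RPR1, of RNase P, 26, 24 and 44. The 82 snoRNA and snRNA genes held 0.211% of TPM, tRNA genes 0.0485% and rRNA genes 0.00145%. PWR1, a regulatory RNA of FLO11 that is overlapped over its whole length, had 0 fragments, and SRG1, whose transcription represses SER3, stood at 53.0 ± 13.8 TPM as the highest of the list of structural and regulatory RNAs.

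The 3 libraries agreed closely, and beyond about 1000 fragments their spread no longer followed counting. Pearson's r of log2 TPM across 6012 genes was 0.984 between replicates 1 and 2, 0.989 between 1 and 3, and 0.991 between 2 and 3, as a description across genes. More than 2-fold apart were 158, 84 and 80 genes in these 3 pairs. The median coefficient of variation was 27.9% for genes of 10 to 100 fragments, 11.4% for 100 to 1000, 8.26% for 1000 to 10000 and 10.1% above 10000. Counting error at the median depth of these classes is 17.4%, 4.36%, 2.20% and 0.766%, so that for the most abundant genes nearly all spread lies between samples. Over all genes with a mean of at least 10 fragments the median was 10.2%, and in WT_Ino80 it was 26.2%.

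Deviations by gene length ran in opposite directions in WT_H2AZ replicates 1 and 2, and changed little in replicate 3. For genes under 300 bases its median deviation from the gene's mean over 3 libraries was 0.17 on the log2 TPM scale, against -0.04 in replicate 1 and -0.09 in replicate 3. For genes of 2400 bases or more the same deviations were -0.02 in replicate 2, 0.09 in replicate 1 and -0.07 in replicate 3. The cause of these trends was not tested. Single short genes did not all follow the median. RPL41A and MFA2 were highest in replicate 2. RPL41B, as short as RPL41A, was highest in replicate 1, at 3747, 3011 and 2857 TPM in WT_H2AZ replicates 1, 2 and 3. YDR524C-B and RPS29B were lowest in replicate 2. RPL41A and RPL41B each have 31.0% unique 50-base words, so the split between them is uncertain.

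Among protein-coding genes with a mean of at least 100 TPM, the 10 with the largest spread were all highest in replicate 2. Their coding lengths ran from 180 bases in COX9 to 645 in HSP26, against 747 to 1737 bases in the most even genes named below. The trend by gene length given above was not separated from their spread. RGI1, a respiratory growth gene with 7.41% of its length free of overlap, stood at 48.4, 326 and 178 TPM in WT_H2AZ replicates 1, 2 and 3. HSP26 and HSP12, small heat shock proteins, stood at 147, 324 and 80.3 TPM and at 550.4, 1006 and 322 TPM. MPC3, a subunit of the pyruvate carrier used in respiration, stood at 130.2, 372 and 203 TPM, COX9, of cytochrome c oxidase, at 321, 738 and 359 TPM and ATP19, of ATP synthase, at 63.2, 159.7 and 80.2 TPM. The others were LSO2, EGO4, YSY6 and BOL2, with coefficients of variation of 58.4%, 50.3%, 46.2% and 43.7%. The most even genes were YIP1, of vesicle transport, with 131, 130.4 and 130.4 TPM, ARO8, an aminotransferase, with 308, 309 and 311 TPM, VAC8 with 128, 129 and 128, RAD23 with 189, 192 and 191 and RPT5, a proteasome ATPase, with 206, 205 and 208 TPM. These are the extremes of 3 values each, taken over all genes of that level, and carry no test.

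WT_H2AZ was last set against WT_Ino80, to see which of these levels were shared by the other wild type. The highest genes were largely common, with 14 of 20, 70 of 100 and 425 of 500 in both. Between the wild types, 1843 of 6154 genes tested, or 29.9%, had an edgeR quasi-likelihood adjusted p under 0.05 together with more than 1.5-fold change, 879 higher (14.3%) and 964 lower (15.7%) in WT_H2AZ. Of the 100 highest genes of WT_H2AZ 18 were higher, 19 lower and 63 not called, to be read beside the 14.3% higher and 15.7% lower of all genes tested. Their median log2 fold change was -0.36, against -0.01 over all genes tested. Leaving out WT_H2AZ replicate 1, 2 or 3 gave 1118, 1079 or 1154 genes called. Strain, count table and any batch cannot be told apart here.

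The highest called fold changes among these 100 genes were those of SPO24, at 5140.1 ± 381 TPM in WT_H2AZ and 613 ± 266 TPM in WT_Ino80, with a log2 fold change of 2.83 (SE 0.38, edgeR quasi-likelihood test, Benjamini-Hochberg adjusted p = 0.00127), of TIR1 (2.35), MFA2 (2.14), HXT4 (1.86) and HXT2 (1.78). TIR1 is a wall mannoprotein known from cold and anaerobic growth. The lowest were ASC1, a ribosome-bound protein, at 1766 ± 233 TPM in WT_H2AZ and 4725 ± 181 TPM in WT_Ino80 (log2 fold change -1.64, SE 0.27, edgeR quasi-likelihood test, adjusted p = 0.00298), RPL38 (-1.35), RPS9B (-1.28), RPP1B (-1.28) and YDR524W-C (-1.23). HXT4, RPS9B, RPP1B and YDR524W-C lost the call without 1 of the WT_H2AZ libraries, at adjusted p up to 0.0774, 0.0705, 0.0603 and 0.0670 with edgeR.

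Some hexose genes differed between the wild types. HXT2 stood at 8349.6, 8005 and 8186 TPM in WT_H2AZ and at 2405, 1173 and 2377 TPM in WT_Ino80 replicates 1, 2 and 3, without overlap (log2 fold change 1.78, SE 0.40, edgeR quasi-likelihood test, adjusted p = 0.0112). HXT1 stood at 235, 230.0 and 331 TPM in WT_H2AZ and at 303, 403 and 579 TPM in WT_Ino80, where the ranges overlap (-0.85, SE 0.24, edgeR quasi-likelihood test, adjusted p = 0.0256, not called without WT_H2AZ replicate 1 or 2 or WT_Ino80 replicate 3). In all 5 of 16 tested hexose genes were higher, HXT2, HXT4, HXT6, HXT7 and SNF3, and 3 were lower, HXT1, HXT9 and HXT10, beside 14.3% higher and 15.7% lower of all genes tested. The number lower is near the share of all genes tested, and HXT6 and HXT7 cannot be counted apart reliably. The counts were 3 higher and 0 lower without WT_H2AZ replicate 1, 2 and 1 without replicate 2, and 3 and 2 without replicate 3. HXT9 and HXT10 also lost the call without WT_H2AZ replicate 1, and HXT9 with replicates as a block. HXT3 did not pass, with 1898 ± 397 TPM in WT_H2AZ and 2079.9 ± 842 TPM in WT_Ino80. Among the 20 glucose-repressed genes 6 were higher, SUC2 (2.64), ADR1 (1.80), JEN1 (1.63), CAT8 (1.13), YAT2 (1.06) and MDH2 (0.87), and 3 lower, ADH2 (-2.83), SFC1 (-2.04) and PCK1 (-0.92), as log2 fold changes. The number lower is thus near the 15.7% of all genes tested. Without 1 of the WT_H2AZ libraries 6 were higher in each case and 1 or 2 lower. PCK1 lost the call in each of these fits, without WT_Ino80 replicate 2, with replicates as a block and in 1 fit of all 12 libraries, and SFC1 without WT_H2AZ replicate 1 or 3.

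In percentage points of TPM, ribosomal protein genes differed most between the wild types among the lists plotted. Cytosolic ribosomal protein genes held 19.3% ± 1.13 of TPM in WT_H2AZ and 28.4% ± 3.56 in WT_Ino80 (SD, n = 3 each), and 81 of 135 tested were lower and 0 higher, with a median log2 fold change of -0.84. The number lower was 24 without WT_H2AZ replicate 1, 27 without replicate 2, 49 without replicate 3 and 53 with replicates as a block, and without WT_Ino80 replicate 1 it was 62, with 2 higher. Ribosome biogenesis genes were lower in 69 of 77 (median log2 fold change -1.003), and in 52 to 65 without 1 of the WT_H2AZ libraries. Beside these 2 lists, 15.7% of all genes tested were lower. Without WT_H2AZ replicate 1, 2 or 3 it was 601 of 6209, 565 of 6206 and 604 of 6216 genes. With replicates as a block it was 711 of 6154, and without WT_Ino80 replicate 1 it was 999 of 6195. Stress response genes held 2.66% ± 0.222 of TPM in WT_H2AZ and 1.65% ± 0.301 in WT_Ino80, with 18 of 32 higher and 3 lower, beside 14.3% higher and 15.7% lower of all genes tested. Those lower were HSP12 (-2.42), GRE1 (-1.37) and ALD3 (-1.33), as log2 fold changes. HSP12 stood at 626 ± 348 TPM in WT_H2AZ and 2699 ± 1238 TPM in WT_Ino80. HSP12 and GRE1 kept the call under every alternative. Without WT_H2AZ replicate 1, 2 or 3 the list had 6, 6 and 7 higher and 2 lower each time, and 517, 514 and 550 of all genes tested were higher. RLE factors and scaling by total counts left the sign of the median log2 fold change of these lists as it was.

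Glycolysis genes held 7.86% ± 0.673 of TPM in WT_H2AZ and 8.34% ± 0.651 in WT_Ino80, within the spread between libraries. Of the 17 genes 4 were higher, HXK1 (1.77), PYK2 (1.72), GLK1 (1.52) and TDH1 (0.94), and 1 lower, TPI1 (-1.09), as log2 fold changes, beside 14.3% higher and 15.7% lower of all genes tested. Their median log2 fold change was 0.23, of the opposite sign to the difference in summed share, in which the most abundant genes weigh most. HXK1 and PYK2 kept the call under every alternative. GLK1 lost it without WT_H2AZ replicate 1 or 3, TPI1 with replicates as a block and in 4 of the fits with 1 library left out, and TDH1 with the block, in 1 fit of all 12 libraries and in 4 of the fits with 1 library left out.

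The paralog order was kept in most families. It was the same in all 3 WT_Ino80 libraries as in the mean of WT_H2AZ in 85 of 102 families and 54 of 58 ribosomal protein pairs. It was reversed in all 3 WT_Ino80 libraries in 9 families, MFA2 over MFA1 and BAT1 over BAT2, the branched-chain aminotransferases, among them, and in 1 ribosomal protein pair. The ratio of ADH1 to ADH2 was 398 in WT_H2AZ and 83.5 in WT_Ino80, that of ENO2 to ENO1 2.61 in WT_H2AZ and 5.93 in WT_Ino80, and that of HXK1 to HXK2 1.84 in WT_H2AZ and 0.811 in WT_Ino80, as geometric means of 3 libraries each. In these 3 families the ranges of the groups did not overlap, and the differences of the ratios were not tested. The share of all families without such overlap is not given here, so this is not shown to be particular to these 3.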

How the data were processed

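Raw counts of fragments per gene were deposited by the authors in 1 table with WT_H2AZ and 1 with WT_Ino80, made with featureCounts 2.0.1 over exons of read pairs per the file headers, which name no strand, multi-mapping or multi-overlap option. Alignment used Bowtie 0.12.2 and sacCer3, per the submitters' processing notes. How reads that map to several places were treated is not given in the sources used here: of 94 protein-coding genes without a unique 50-base word, 25 had at least 10 fragments in each library and 41 had 0.

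TPM used the Length column, which for 5960 of 6008 protein-coding genes is a multiple of 3 and so a coding length. Of 7127 IDs, 6047 matched a RefSeq locus tag of the R64 reference, 6038 with the same chromosome, start and end. For the wild types, R 4.3.3 ran edgeR 4.0.16: genes kept by filterByExpr (minimum 10), TMM factors, the quasi-likelihood test and Benjamini-Hochberg adjustment over all genes tested. The steps were tested on simulated data. Values were also computed with other gene sets, lengths, scalings, tests (DESeq2 1.42.0) and libraries left out.

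Genes named were the 20 highest, the highest and lowest of each list, the whole glycolysis, hexose, mating, histone and marker lists, the extremes of paralog ratio and of spread, and the extremes of the wild-type comparison. Silent, mitochondrial and overlapped genes and ribosomal protein sums were named after their values were seen. The members and all lists were chosen with earlier results of these data known. MRP8 was taken off the mitochondrial ribosome list, and CRS5 and TLC1 matched no ID.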

Additional observations from a re-analysis of the deposited data

How the results depend on the processing

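Counting only IDs of protein-coding genes in the TPM sum moved no share, range or number of dominant genes beyond the SD between libraries. Dividing by the length free of overlap gave 8.85% of TPM for glycolysis and a dynamic range of 3.11 powers of 10. Without scaling by length the 100 highest genes held 32.5%, 50% of fragments came from 331 genes, the dynamic range was 3.27, ribosomal protein genes held 9.51% and glycolysis 9.58%. Genes with 0 fragments numbered 313 among protein-coding IDs, reading frames without a RefSeq gene included, and 176 among genes with no overlap, and those with at most 3 fragments 450 and 309.

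Of the paralog counts, 2 were varied: ribosomal protein pairs at 2-fold or more and families at 10-fold or more. Both stayed within 1.5 times of those reported under each alternative run, free length, no length, WT_Ino80 and 1 library left out. The other paralog counts were not varied. The median coefficient of variation was 26.2% in WT_Ino80, and 7.51% to 9.25% with 1 WT_H2AZ library left out, where 2 values remain per gene.

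Leaving out 1 library gave 1079 to 1985 genes called between the wild types, 1079 to 1154 without a WT_H2AZ library and 1681 to 1985 without a WT_Ino80 library, and the cause of this gap was not tested. Replicate numbers did not pair the samples: same-numbered deviations correlated at -0.171, -0.151 and 0.0892. With a replicate block 1450 genes were called. DESeq2 called 2047, the fit of all 12 libraries 2036 and no fold limit 2123. Of 25 named genes called, 14 kept the call under every alternative and none changed direction. Depth limits values below about 10 fragments, where the median coefficient of variation was 82.0%.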
